A study of Mus musculus with 2 samples.

Results

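Natural killer (NK) cell receptors are the surface proteins with which NK cells read their targets and receive their growth signals. Receptor genes were taken as the array rows whose gene name was Ncr1, Klrb1c, Klrd1, Klre1, Klra8, Klrk1, Klrc1, Klrc2, Cd226 or Il2rb, a list of 10 genes. Rows were found for 9 of them, with 19 probes among the 56603 probes used and 9 genes among 24813 with a RefSeq name. No row carried the name Klrc2, so its expression was not analysed here. The arrays compared splenic monocytes of the outbred ICR mouse stock at 8 weeks after a 5/6 nephrectomy (5/6Nx), which removes most of the kidney tissue and models chronic kidney disease, with those at 8 weeks after a sham operation. The cells of both groups were sorted with antibodies to CD11b and Ly6C, and both operations were done on mice with no allele or other agent named in the labels. Each group was 1 array labelled with Cy3, and the labels give neither the age of the mice nor how many were behind an RNA sample. With 1 array per group no difference has a replicate check, no test was possible, and all values describe these arrays.

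NK cells balance activating receptors, which bind ligands of stressed or infected cells, against inhibitory receptors, which bind MHC class I molecules of healthy cells. Most receptors of mouse NK cells are lectin-like proteins encoded side by side in the natural killer gene complex on chromosome 6. Several of them are shared with T cells, mainly CD8 T cells and NKT cells, and mature mouse NK cells also carry CD11b, one of the sort antigens.

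All 9 represented receptor genes were higher by 2-fold or more on the 5/6Nx array, 3 of them measured on both arrays and 6 as a lower bound because the sham array was not well above background. Il2rb, Cd226 and Klra8 were the 3 measured genes, at log2 differences of 7.66, 4.69 and 3.0. Klrk1, Klrd1 and Ncr1 were at least 175-fold, 105-fold and 22.7-fold higher. Among all genes well above background on at least 1 array, 14.1% were higher by this much on the 5/6Nx array, measured or as a bound, and 10.6% were lower by as much. A difference is the log2 intensity on the 5/6Nx array minus that on the sham array, each relative to its array's 75th percentile. Well above background is the scanner software's own call on a spot. A bound compares the bright reading with the dim probe's reading or with the faintest signal called well above background on that dim array (12.8 on the sham array), whichever is larger.

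The arrays carry 60-base probes, and what a receptor's value means depends on the letters that were printed. Klra8 belongs to the Ly49 family, whose members have similar sequences and whose gene content varies between mouse strains, so its probes are shown first. A pair of them overlaps by 46 bases and crosses a splice junction, since the 60 bases span 2932 bases of the genome. Within the overlap they differ by the 1 substitution A20T, counted from 1 at the 5′ end of the first probe, and capitals mark that base in both. The other sequences are 1 probe each of Klrd1 and Klrc1, the partners of an inhibitory heterodimer, and 2 of Klre1, one of which crosses a junction and spans 1944 bases. All 6 are given 5′ to 3′ as in the deposited files, with positions on the mouse build mm9 and, for the Klra8 and Klrc1 probes, on the minus strand.
Klra8 probe A_52_P98698, chr6:130072163-130075094: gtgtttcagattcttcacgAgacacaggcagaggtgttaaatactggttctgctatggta
Klra8 probe A_55_P2742960, chr6:130072149-130075080: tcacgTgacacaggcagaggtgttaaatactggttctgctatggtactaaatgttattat
Klrd1 probe A_51_P280947, chr6:129548391-129548450: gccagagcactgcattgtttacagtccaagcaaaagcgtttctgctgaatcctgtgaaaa
Klrc1 probe A_55_P2004652, chr6:129628315-129628374: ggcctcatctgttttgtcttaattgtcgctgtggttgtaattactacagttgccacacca
Klre1 probe A_55_P2071716, chr6:129534195-129534254: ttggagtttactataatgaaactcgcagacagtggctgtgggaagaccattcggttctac
Klre1 probe A_52_P592222, chr6:129530081-129532024: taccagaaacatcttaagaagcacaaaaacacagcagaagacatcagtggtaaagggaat
No probe named for another gene shared a run of 20 bases with any of the 19 receptor probes. The 2 probes of Klrk1 share 20 bases with each other, so they and the Klra8 pair are not independent readings of their genes. Transcripts of the Ly49 paralogs were not used here, so the Klra8 values may hold signal of its relatives.

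Of the 19 receptor probes, 17 stood well above background for 5/6Nx and 3 for sham. The 5/6Nx intensities ran from 3.09 to 8925 with a median of 207.2, against 2.66 to 35.5 with a median of 3.51 on the sham array. A total of 14 probes were well above background only for 5/6Nx, 3 on both arrays, 2 on neither and none only for sham. Counted by gene, 6 of the 9 receptors were well above background only for 5/6Nx. Of all genes well above background on at least 1 array, 9.0% were so only for 5/6Nx and 2.36% only for sham. By its weaker criterion, the software called 10 of the 19 probes positive and significant on the sham array, among them Klrd1, Klrc1 and all 3 Klra8 probes. The probes of Ncr1 and Klrk1 did not reach this criterion on the sham array, and 9 probes carried a surrogate value there.

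**Figure D1:**
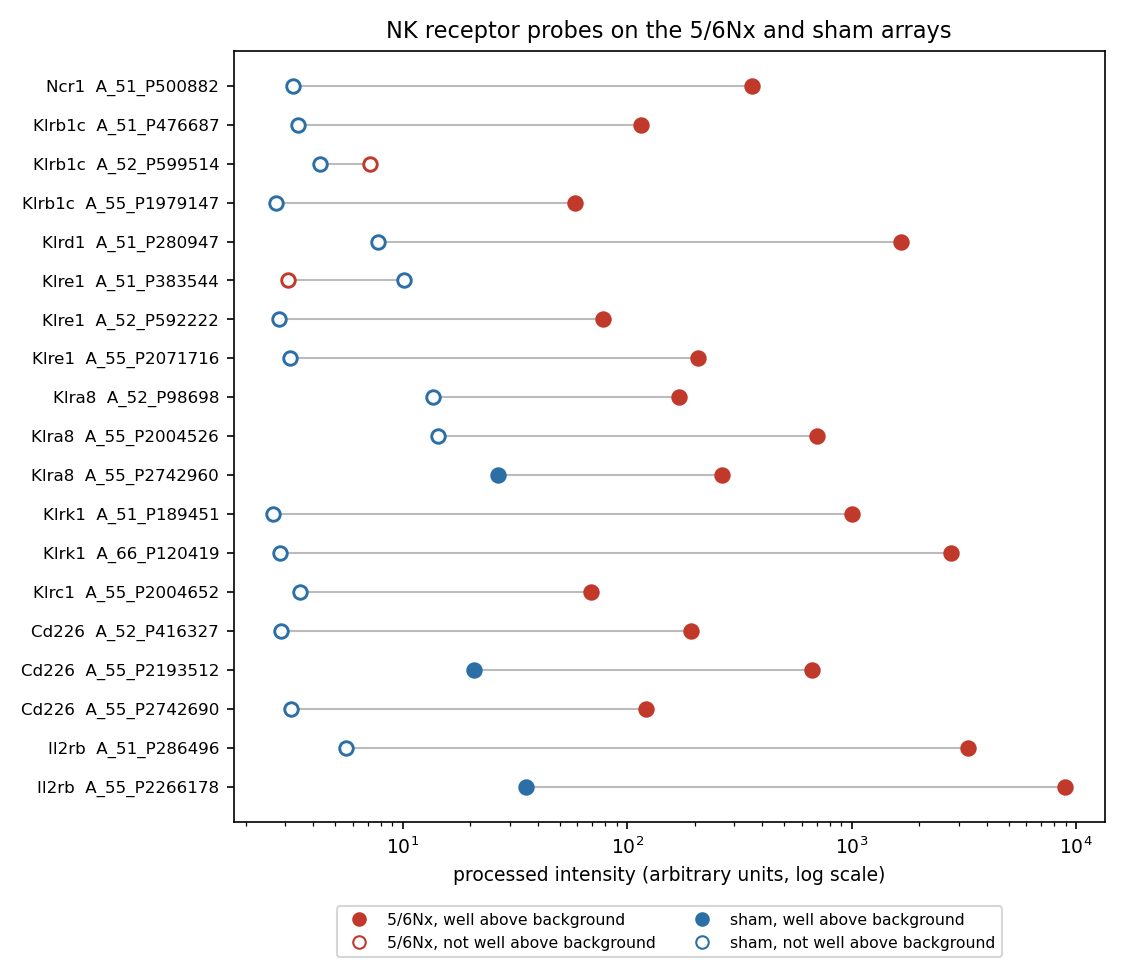
Processed intensity (arbitrary units, log axis) of each of the 19 NK receptor probes on the 5/6Nx array (red) and the sham array (blue), 1 row per probe, with filled points where the spot was well above background. The 17 filled red points lie right of their blue partners, 3 blue points are filled, and the Klrb1c and Klre1 rows with 2 open points have no call.

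Among activating receptors, Klrk1 encodes NKG2D, which binds stress-induced relatives of MHC class I. Its probe A_66_P120419 (mm9 chromosome 6, 129562442 to 129562501) read 2773 on the 5/6Nx array, against 2.84 on the sham array. Its other probe read 1004 on the 5/6Nx array, against 2.66 on the sham array, which gives bounds of at least 175-fold and 63.4-fold. Both sham readings were surrogate values, so the sham array gives no level for Klrk1, and both 5/6Nx readings were well above background.

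Ncr1 encodes NKp46, the receptor that marks NK cells in all mouse strains. Its only probe (chromosome 7, 4296176 to 4296235) read 359.9 on the 5/6Nx array, against a surrogate value of 3.25 on the sham array, or at least 22.7-fold higher. Ncr1 is the member whose expression is most closely held to NK cells and related innate lymphoid cells. It was well above background on the 5/6Nx array and not on the sham array.

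Klrb1c encodes the antigen NK1.1, an activating receptor whose antibody epitope differs between mouse strains. Its probe A_51_P476687 (chromosome 6, 128728603 to 128728662) read 115.6 on the 5/6Nx array, against 3.43 on the sham array, or at least 7.30-fold higher, and a further probe was at least 3.69-fold higher. The remaining Klrb1c probe, A_52_P599514, read 7.19 on the 5/6Nx array, against 4.30 on the sham array, and was well above background on neither. With normexp background correction the Klrb1c bound fell under 2-fold, at 1.91-fold, and with the looser filter on dim probes the gene was represented by A_52_P599514 at 1.35-fold.

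Klra8 encodes Ly49H, the activating Ly49 receptor that recognises cytomegalovirus-infected cells in C57BL/6 mice. Its probe A_55_P2742960 read 264.6 on the 5/6Nx array, against 26.7 on the sham array, a log2 difference of 3.0. The overlapping probe A_52_P98698 read 170.0 on the 5/6Nx array, against 13.6 on the sham array, or at least 10.1-fold higher. The third probe (chromosome 6, 130065245 to 130065304) read 697.8 on the 5/6Nx array, against 14.4 on the sham array, or at least 39.1-fold higher. All 3 Klra8 probes were higher on the 5/6Nx array, and with normexp the measured difference was 1.68.

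Cd226 encodes DNAM-1, an activating adhesion receptor for nectin-like ligands that NK cells share with T cells and some myeloid cells. Its probe on chromosome 18 from 89441556 to 89441615 read 665.2 on the 5/6Nx array, against 20.7 on the sham array, a log2 difference of 4.69. Its other 2 probes read 192.8 and 121.0 on the 5/6Nx array, against 2.88 and 3.19 on the sham array, with bounds of 12.2-fold and 7.64-fold. The 3 probes lay on the same side, and with normexp the measured difference was 2.79.

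The inhibitory side was represented by Klrc1, which encodes NKG2A, and by Klrd1, which encodes CD94, the chain that NKG2A and the activating NKG2C (Klrc2) both need to reach the surface. Klrd1 read 1661 on the 5/6Nx array, against 7.75 on the sham array, or at least 105-fold higher. Klrc1 read 69.0 on the 5/6Nx array, against 3.51 on the sham array, or at least 4.36-fold higher. With normexp the Klrc1 bound came to 1.41-fold, under the 2-fold line.

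Klre1 encodes a lectin-like receptor that pairs with receptors of the Klri family. The probe A_55_P2071716 read 207.2 on the 5/6Nx array, against 3.15 on the sham array, or at least 13.1-fold higher. The junction-spanning probe A_52_P592222 read 77.9 on the 5/6Nx array, against 2.82 on the sham array, or at least 4.92-fold higher. The remaining Klre1 probe (chromosome 6, 129534979 to 129535038) read 3.09 on the 5/6Nx array, against 10.1 on the sham array, and was well above background on neither. With the looser filter on dim probes the Klre1 probes therefore fell on different arrays, and the gene had no value.

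Il2rb encodes CD122, the beta chain of the receptors for interleukin-2 and interleukin-15, the cytokine that keeps NK cells alive. Its probe on chromosome 15 from 78309771 to 78309830 read 8925 on the 5/6Nx array, against 35.5 on the sham array, a log2 difference of 7.66. Its other probe (78311109 to 78311168) read 3290 on the 5/6Nx array, against 5.62 on the sham array, or at least 208-fold higher. Both Il2rb probes were far higher on the 5/6Nx array, and under normexp the difference was 6.34.

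Taking measured values and bounds, 7 of the 9 receptor genes were 8-fold or more higher for 5/6Nx, with Klra8 right at that line, beside 3.43% of all genes well above background on at least 1 array. The median of the 3 measured receptors was 4.69, and 4.51 with the 6 bounds added, beside a median of -0.12 over the 15715 genes measured on both arrays. Bounds are lower limits, so the receptors cannot be ordered by the size of their difference. Spots of the same probe differed little within an array, with an SD of 0.0496 log2 units on the 5/6Nx array and 0.0557 on the sham array over 283 bright probes. This covers neither dim probes nor labelling, sorting or the animals.

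A total of 6 of the 9 receptors lie in the natural killer gene complex. Their outermost probes lie at 128728603 and 130075094 on chromosome 6 (mm9), between which the arrays represent 33 other named genes. Of these others 16 were measured on both arrays, with 8 higher by 2-fold or more for 5/6Nx, 1 lower and 7 within 2-fold. A further 9 had signal well above background only for 5/6Nx, of which 8 had a bound past 2-fold, while 1 had it only for sham and 7 on neither array. Over all measured genes, 12.2% were higher and 11.0% lower by 2-fold or more. Not all of the higher genes of the complex are NK receptors. Clec12a, a receptor of myeloid cells, read 22599 on the 5/6Nx array, against 489.9 on the sham array, and Clec7a, the fungal sensor dectin-1, read 19195 on the 5/6Nx array, against 1586 on the sham array. Cd69, an early activation antigen of lymphocytes, was at least 45.4-fold higher. The stretch also holds genes that went the other way or stayed near 0. Gabarapl1, an autophagy gene next to Klre1, read 6789 on the 5/6Nx array, against 23928 on the sham array. Klra17, a Ly49 gene, read 25.1 on both arrays, a difference of -0.31 after scaling.

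**Figure D2:**
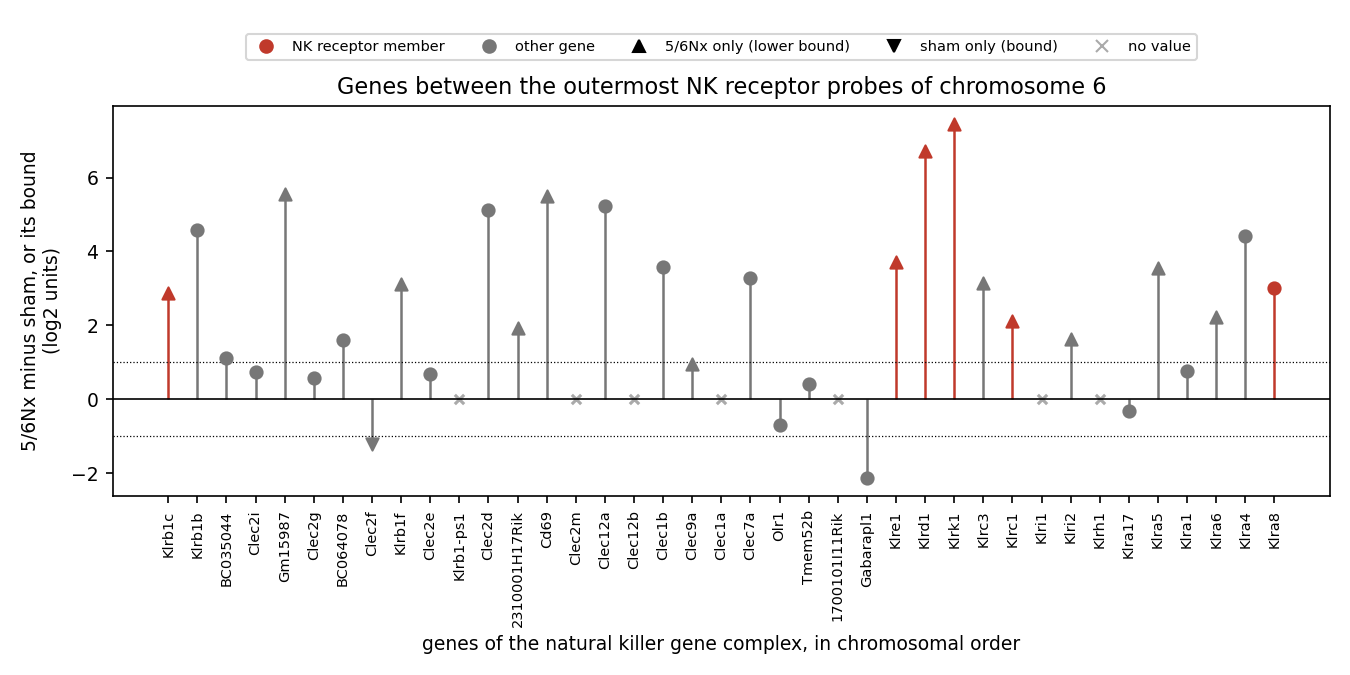
Difference or bound (log2 units, 5/6Nx minus sham) for the 39 named genes between the outermost NK receptor probes of chromosome 6, evenly spaced in chromosomal order, with receptors in red, other genes in grey, circles for genes measured on both arrays and triangles for bounds. The 6 receptors all lie above the 2-fold line, while the 33 other genes run from Gabarapl1 below 0 to Gm15987 at a bound of 47.0-fold.

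The rest of the Ly49 family was mixed. Of 22 listed genes 14 were on the arrays, 9 of them measured, with 6 at least 2-fold higher, none lower and 4 more on the 5/6Nx array only. Beside these counts, 12.2% of all measured genes were higher and 11.0% lower by 2-fold or more. Of all genes well above background on at least 1 array, 9.0% were so only for 5/6Nx. Klra16 read 5686 on the 5/6Nx array, against 41.6 on the sham array, and Klra7, which encodes the inhibitory receptor Ly49G, read 1143 on the 5/6Nx array, against 26.0 on the sham array. Klra23 was at least 47.1-fold higher. Klra4, which encodes the activating receptor Ly49D, read 1467 on the 5/6Nx array, against 55.5 on the sham array. Klra2, a member with known expression in myeloid cells, read 461.8 on the 5/6Nx array, against 205.1 on the sham array, a difference of 0.86. The 3 Klra1 probes, 2 of which the files name Klra22, ran from 0.76 to 6.04, so the family's values depend on the probe. Because Ly49 genes have similar sequences, these values are uncertain as readings of single genes.

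Other lectin-like receptors of NK cells were mostly on the 5/6Nx array only. Of 10 listed genes 6 were well above background there alone, 3 on neither array and 1 on both. The shares over all genes given for the Ly49 family, 9.0% on the 5/6Nx array only among them, stand beside these counts too. Klrg1, an inhibitory receptor of mature NK cells and effector T cells, was at least 57.3-fold higher, and Klrb1b, an inhibitory receptor for Clec2d, read 472.8 on the 5/6Nx array, against 15.8 on the sham array. Klrb1a, an activating relative of Klrb1c, was at least 10.8-fold higher, and Klrc3, a further NKG2 gene, at least 8.78-fold. Klri2, a partner of Klre1, had a bound of 3.08-fold. Of 19 other surface receptors 12 were measured, with 7 at least 2-fold higher and 2 lower, and 6 were on the 5/6Nx array only. Among all measured genes 12.2% were higher and 11.0% lower by as much. The SLAM family members Slamf6 and Slamf7 differed by 5.59 and 5.30, and Cd2, an adhesion molecule of T and NK cells, by 5.33. The lower ones, Havcr2 at -4.04 and the Fc receptor Fcgr3 at -1.48, are also expressed by myeloid cells. Cd244a, the receptor 2B4, differed by 0.31, and its probes ran from -0.34 to 2.75. Itga2, the DX5 antigen of NK cells, read 19.5 on the 5/6Nx array, against 3.07 on the sham array, a bound of only 1.23-fold, and Cd160 was well above background on neither array.

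The receptors signal through adaptors, some of which monocytes share. Of 21 genes of adaptors and proximal signalling 19 were measured, with 7 at least 2-fold higher, 1 lower and 11 within 2-fold. Over all measured genes, 12.2% were higher and 11.0% lower by 2-fold or more, shares that also stand beside the lists that follow. For genes on the 5/6Nx array only, the share was 9.0% of all genes well above background on at least 1 array. Tyrobp, which encodes DAP12, the partner of Ly49H and Ly49D, read 32832 on the 5/6Nx array, against 49479 on the sham array, a difference of -0.90. Hcst, which encodes DAP10, the partner of NKG2D, differed by 0.87, and Fcer1g, the Fc receptor gamma chain used by NKp46, by 0.86. The 7 higher genes were the kinases Lck at 5.50, Zap70 at 5.36 and Fyn at 1.94, the scaffold Lat at 3.80, the adaptors Sh2d2a at 3.67 and Lcp2 at 1.5, and the phosphatase Ptpn6 at 1.59. The SLAM adaptor Sh2d1a was at least 16.8-fold higher. Inhibitory receptors bind the phosphatases Ptpn6 (SHP-1) and Ptpn11 (SHP-2). Ptpn6 read 17238 on the 5/6Nx array, against 4612 on the sham array, while Ptpn11 stood at 0.06. Cd247, the zeta chain of T cell receptors and NKp46, differed by -0.64 on its only measured probe of 4. The lipid phosphatase Inpp5d differed by -1.14.

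Ligands of the receptors went both ways. Of 26 listed genes 25 were on the arrays and 20 measured, with 7 at least 2-fold higher, 4 lower and 9 within 2-fold. A further 2 were on the 5/6Nx array only, 1 on the sham array only and 2 on neither. None of the NKG2D ligands with a value was 2-fold or more higher. Raet1a, Raet1b, Raet1c and Raet1e differed by -1.55, -1.33, -1.94 and -1.49, H60a and H60b by -0.07 and -0.13, and Ulbp1 by -0.94 with a further probe at 0.19. A further Raet1a probe was within 2-fold, at -0.14. H60c read 17.6 on the 5/6Nx array, against 10.2 on the sham array, a bound of only 1.11-fold. The Raet1 genes are close relatives, so their probes may read one another. With spike-in scaling, under which the median of all genes was 0.31, the 8 lists held 5 genes lower by 2-fold or more, in place of 8. Several MHC class I genes and Clec2d were higher. H2-T23, which encodes the Qa-1 molecule read by CD94 and NKG2A, read 92196 on the 5/6Nx array, against 17436 on the sham array, a difference of 2.09, and Clec2d differed by 5.13. Its relatives Clec2e, Clec2g and Clec2i were within 2-fold, at 0.70, 0.58 and 0.73. Clec2f, on the sham array only, was at least 2.31-fold lower for 5/6Nx. The classical MHC class I genes H2-K1 and H2-D1 differed by 2.80 and 2.08, and their light chain B2m by 2.86. Pvr and Nectin2, ligands of DNAM-1 that the inhibitory receptor Tigit also binds, differed by -0.59 and 1.65, and the Pvr probes ran down to -1.51. Il15, the cytokine read by CD122, differed by 2.11 and was higher on all 3 of its probes.

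The partners of Il2rb were measured in a list of cytokine receptors and JAK-STAT genes. Of 16 genes 14 were measured, with 8 at least 2-fold higher, none lower and 6 within 2-fold, and Il18rap was on the 5/6Nx array only. Il2rg, the common gamma chain, read 18393 on the 5/6Nx array, against 1769 on the sham array, a difference of 3.07. The interleukin-18 receptor Il18r1 differed by 6.57, and Cish, a STAT5-induced inhibitor of interleukin-15 signalling, by 6.26. Il12rb1, a chain of the interleukin-12 receptor, differed by 5.22. Il15ra differed by 1.05, with probes that ran up to 4.62, and Il2ra by 0.92. Jak1, the kinase bound to Il2rb, stood at -0.02, and Il7r at -0.39.

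Of 15 factors of NK cell development on the arrays, 14 were measured, with 7 at least 2-fold higher, none lower and 7 within 2-fold. Eomes, the T-box factor that defines conventional NK cells, read 271.0 on the 5/6Nx array, against 14.3 on the sham array, or at least 15.3-fold higher. Tcf7 and Ets1 differed by 4.71 and 4.11, and Gata3 by 3.78, all factors that T cells use as well. Nfil3 and Zeb2, which monocytes also express, differed by 0.37 and -0.09. The other factors within 2-fold were Runx3 at 0.29, Ikzf3 at 0.95, Tox at 0.97, Elf4 at 0.09 and Bach2 at -0.39. All 17 cytotoxic effector genes were on the arrays, 10 measured, with 7 higher by 2-fold or more and none lower, and 7 seen only for 5/6Nx, each with a bound past 2-fold. Granzyme A (Gzma) differed by 9.55. Ifng, the interferon of NK and T cells, was at least 713-fold higher, the granule protein Nkg7 at least 471-fold and granzyme B (Gzmb) at least 379-fold. Perforin (Prf1), which opens the target membrane, read 1329 on the 5/6Nx array, against 117.0 on the sham array. Gzmm, a granzyme of NK cells, read 129.1 on the 5/6Nx array, against 111.5 on the sham array, a difference of -0.10, and the death ligand Tnfsf10 also differed by -0.10.

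**Figure D3:**
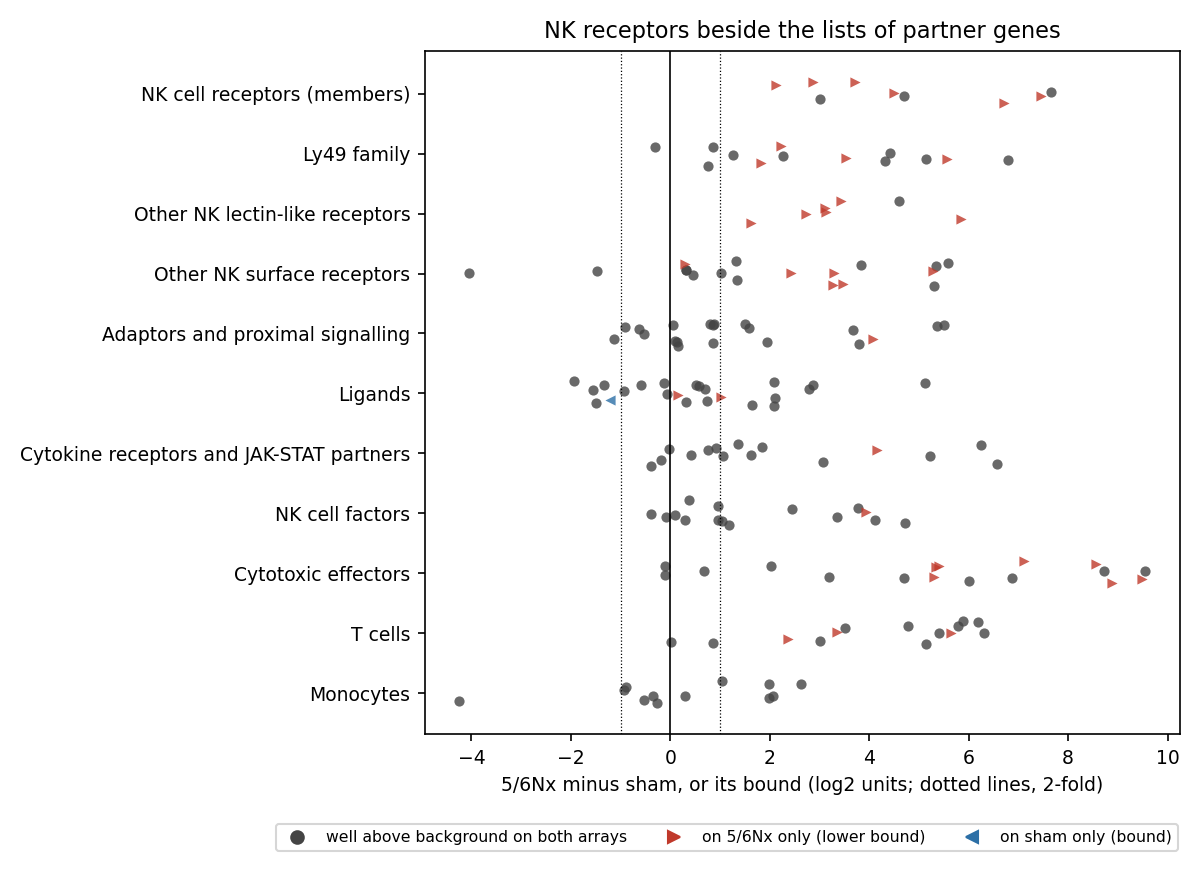
Difference or bound (log2 units, 5/6Nx minus sham) for each gene with a value among the NK receptors, 8 lists of partner genes and the T cell and monocyte markers, with circles for genes measured on both arrays and triangles for bounds; vertical scatter within a row has no meaning. The receptors, cytotoxic effectors and T cell markers lie mostly right of the 2-fold line, with a median of 5.13 over the measured T cell markers, while the medians of measured adaptors, ligands and monocyte markers are 0.86, 0.55 and 0.02.

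Markers of other cell types moved on the same arrays. The 12 monocyte markers, the labelled cell type, were well above background on both arrays, with 5 at least 2-fold higher and 1 lower and a median of 0.02. Itgam (CD11b) read 31995 on the 5/6Nx array, against 33016 on the sham array, a difference of -0.36, with a further probe at -1.18. Ly6c2, which encodes the other sort antigen, read 213343 on the 5/6Nx array, against 43666 on the sham array, and Cx3cr1, the fractalkine receptor, differed by -4.24. Csf1r, the growth factor receptor of monocytes, read 72856 on the 5/6Nx array, against 70611 on the sham array. Of 15 T cell markers 11 were measured, with 9 at least 2-fold higher and none lower, 3 were on the 5/6Nx array only and Cd40lg on neither. Their summed intensity was 32787 on the 5/6Nx array, against 1546 on the sham array. Cd3d and Cd3g differed by 6.19 and 6.31, Ubash3a by 0.01, and Cd8a was at least 49.7-fold higher. Of 9 markers of innate lymphoid cells 2 and 3, 2 were measured and higher, 3 were on the 5/6Nx array only and 4 on neither, with a summed intensity of 2281 on the 5/6Nx array, against 122.3 on the sham array. Of 8 B cell markers 2 of the 5 measured were higher. Of 7 measured neutrophil markers 4 were higher and 1 lower, with Lcn2 at 7.31 and Elane at -1.66. Of 5 measured red pulp macrophage markers 2 were higher, among them Spic at 5.53, and 2 lower, among them Trf at -4.08, and Vcam1 was at least 74.3-fold higher. Of 4 measured markers of conventional dendritic cells Itgae and Batf3 were higher, at 4.43 and 4.28, and Clec10a was lower, at -4.12. By their bounds Zbtb46 was at least 11.1-fold and Clec9a at least 1.93-fold higher, while Cd209a was at least 2.67-fold lower. Of 4 measured markers of plasmacytoid dendritic cells 1 was higher, Bst2 at 5.70, which is also induced by interferon. The summed intensity of conventional dendritic cell markers was 3956 on the 5/6Nx array, against 22601 on the sham array. That of red pulp macrophage markers was 54030 on the 5/6Nx array, against 58752 on the sham array, and the sums of all other marker lists were higher for 5/6Nx. How far T cells, NKT cells or other cell types contribute to the receptor values was not tested. In a bulk sample a larger share of cells that express a receptor and more receptor RNA per cell cannot be told apart.

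Promoters were read because the 9 represented receptors differed in the same direction. RefSeq promoter sequences (GRCm38.p6) were matched by symbol for 7 of the 10 members, Ncr1, Klrb1c, Klre1, Klra8, Klrk1, Klrc1 and Klrc2, the last of which has no expression value. In the 250 bases before the start, TGTGGT, the core of RUNX sites, was searched on both strands. It was found in 6 of these 7, all but Klra8, and in 14.0% of 32851 promoters. Of the other motifs, GTGTGA, a T-box half-site, was found in 1 of the 7 (Ncr1) and in 12.3% of all promoters, GGAAGT, an ETS core, in 1 (Klrb1c) and in 19.7%, and TTCNNNGAA, a STAT site, in 0 of the 7 and in 7.02%. No match overlapped another in Ncr1. Klrc1 and Klrc2 are paralogs, so their promoters are not independent, and the motifs were chosen with these sequences in view. A match is a run of letters and not a measured site. The Ncr1 promoter, on the plus strand, is shown as the one with both RUNX and T-box letters, with the matches in capitals. These are RUNX cores 176 and 41 bases before the start, the second printed as its reverse complement ACCACA, and the T-box half-site at 80 bases.
Ncr1 promoter, chr7:4337465-4337714: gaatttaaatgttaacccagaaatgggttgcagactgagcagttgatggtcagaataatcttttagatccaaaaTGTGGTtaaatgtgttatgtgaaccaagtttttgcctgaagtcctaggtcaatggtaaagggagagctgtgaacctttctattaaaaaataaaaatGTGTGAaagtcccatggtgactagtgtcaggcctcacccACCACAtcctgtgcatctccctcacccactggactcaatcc

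The receptors' differences were recomputed under other background corrections, scalings and filters. The direction was the same in every value obtained, and 86 of 89 values of single receptors were at least 2-fold higher. The 3 others were Klrb1c under normexp and under the looser filter, and Klrc1 under normexp. A bound for a gene seen only for 5/6Nx was kept only on the higher side, so bounds could not show the other direction. Klre1, whose probes fell on different arrays under the looser filter, gave no value there. Il2rb ran from 6.34 to 8.09, and Klrk1 from 5.11 to 9.62. The upper end of Klrk1, without a filter on dim probes, is set against a surrogate value of the sham array and is no measured difference.

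**Figure D4:**
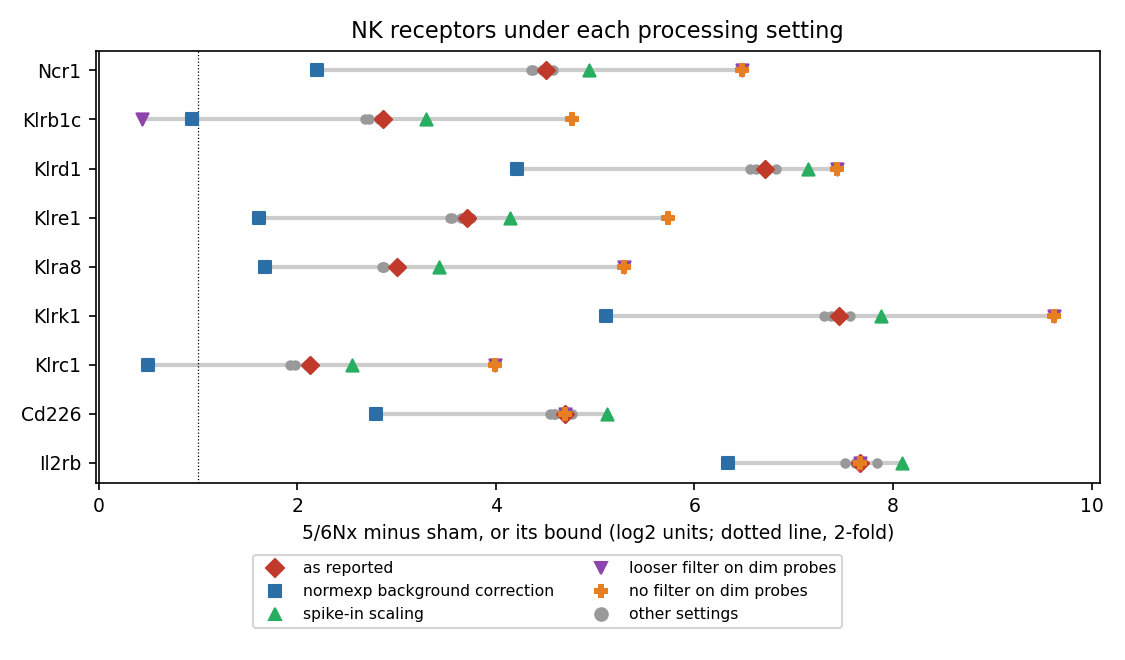
Difference or bound (log2 units, 5/6Nx minus sham) of the 9 NK receptors under the reported setting and each alternative, 1 row per gene, with the grey bar from the lowest to the highest value. All points lie right of 0, which holds for bounds by construction. The points left of the dotted 2-fold line are Klrb1c under normexp and the looser filter, and Klrc1 under normexp.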

How the data were processed

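Both arrays came from the same slide and scan and hold 62976 spots, 59305 of them not controls. Per the file headers, the deposited intensity values were made with Agilent Feature Extraction 10.7.1.1 (9.5.1.1 per the submitters' processing notes), with spatial and multiplicative detrending within each array and surrogate values for low spots. The spot p-values in the deposited files were not used. Of the non-control spots 67.0% on the 5/6Nx array and 63.0% on the sham array were well above background.

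From these, log2 intensities were set relative to each array's 75th percentile (544.5 on the 5/6Nx array, 439.2 on the sham array), without the 47 and 41 spots flagged as outliers there. Spots of a probe were averaged, and each gene took the value of its brightest probe called well above background on both arrays. Probes were named through RefSeq (GRCm38.p6) by accession (32992), symbol (10224) or synonym (520). The other 12867 kept the files' names and stayed out of counts over all genes. The receptors were matched by the files' gene names, and every receptor was named, with at least the 3 furthest genes and the nearest one of each of the 8 partner lists. Marker genes named for other cell types were picked after their values were seen.

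The members and lists were chosen with earlier results of these data known. Alternatives used limma 3.58.1 in R 4.3.3, and the steps were tested on simulated data with Python 3.11.15. Exon and UTR annotation on mm9 was not used here. The number of arrays limits the precision.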

Additional observations from a re-analysis of the deposited data

How the results depend on the processing

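With 1 array per group, leaving out a replicate was not possible. No paired analysis was possible because each group is a single array. The count of 9 receptors at least 2-fold higher was 7 with normexp and 7 with the looser dim-probe filter, and 9 under the other alternatives, the 4-fold line included. The median over measured receptors, 4.69 as reported, was 2.79 with normexp, 4.54 with median scaling, 5.12 with spike-in scaling, 4.60 with quantile normalization, 4.76 with cyclic loess, 4.99 with the looser filter, 5.73 without a filter, 4.59 with the authors' value table and 4.51 with bounds added. It was the same when the percentile took all non-control spots or a gene's probes were averaged. With the looser filter and without a filter more receptors count as measured, so those medians cover a different set of genes. The median without a filter is the Klre1 value, which is set against a surrogate value of the sham array. Over the 8 partner lists, genes at least 2-fold higher (measured or as a bound) numbered 76, and between 68 with normexp and 90 with spike-in scaling, and 59 at 4-fold. Genes at least 2-fold lower numbered 8, but 5 with spike-in scaling, 10 with median scaling, 9 with the authors' value table and 1 at 4-fold. The normexp offset of 50 shrinks differences of dim probes by construction. Sham signals near background give only bounds for most receptors.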
